A study of Mus musculus with 8 samples.

Results

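Accessible regions were examined at 8 genes of netrin signalling: the ligand genes Ntn1 and Ntn4, the receptor genes Dcc and Neo1, and the receptor genes Unc5a, Unc5b, Unc5c and Unc5d. Peaks were taken from the gene body and the 20 kb on either side, in mm10 (GRCm38) with GENCODE M21 gene models. By this rule the 8 genes held 193 of 152984 WT peaks, 134 of 106974 het peaks and 201 of 174407 mutant peaks. No peak was counted for more than 1 of these genes. The windows of Ntn1, Neo1, Unc5a, Unc5b and Unc5c also reached a neighbouring protein-coding gene (Stx8, Hcn4, Hk3, Slc29a3 and Bmpr1b).

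The peaks came from ATAC-seq, in which the Tn5 transposase cuts and tags open DNA, on granule neuron progenitors (GNPs) of the mouse cerebellum at postnatal day 7. There were 3 WT, 2 het and 3 mutant libraries for Chd7, a chromatin remodeller. All mice are labelled with the strain C56Bl6/J, and the study's methods give C57BL/6N pups for GNP isolation on Percoll gradients. In the study WT mice carried the floxed Chd7 alleles without Cre (Chd7 f/f), het mice were Atoh1-Cre::Chd7 f/+ and mutant mice Atoh1-Cre::Chd7 f/f. Every genotype thus carried a floxed allele, and Atoh1-Cre acts in the granule lineage of the het and mutant mice. The study speaks of technical replicates for WT and mutant, and the peaks were called on the pooled libraries of each genotype. None of the values below therefore has a replicate error, and no genotype difference was tested.

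Netrins are secreted proteins related to laminins that steer axons and migrating neurons. Dcc, and its relative Neo1, mediate attraction to netrin, whereas receptors of the Unc5 family mediate repulsion, alone or together with Dcc. In the developing cerebellum Unc5c keeps granule cells within their territory, and mice without it have granule cells beyond the rostral border. The study places Unc5c among the neural genes with lower expression in Chd7 mutant GNPs. This raises the question of whether accessibility at Unc5c and its partners differed between the genotypes. The study itself tested ATAC-seq peaks between genotypes on the read counts of each replicate, which was not repeated here.

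The depth was 50394313 tags after filtering for WT, 51030229 for mutant and 30923002 for het. The height of a peak is the pileup at its summit, the number of tags stacked there, and it was scaled to 1000000 filtered tags to compare WT with mutant. Het tags were extended to another length by the peak caller, so het heights were not compared and het peaks were used by presence and by within-list rank. The rank is the percentage of peaks of a list at or below the -log10 q of that peak, and 100 is the strongest. Tag size was 107 bp for WT and 76 bp for mutant, which cannot be told apart from the genotype. In such bulk cells a smaller share of cells with open DNA cannot be told apart from less open DNA in each cell. Start-site peaks, with a summit within 1 kb of an annotated start, were listed for 7 of 8 GNP marker genes in WT, 7 in het and 8 in mutant. Atoh1, the factor that defines the granule lineage, ranked 80.8, 76.9 and 85.4. Of the markers of other cells, 4 of 5 for Purkinje cells and 3 of 3 for inhibitory interneurons had such a peak in WT. So did 3 of 4 for astrocytes, 3 of 4 for the oligodendrocyte lineage, 2 of 3 for endothelium and 1 of 3 for microglia. Median WT ranks of these starts ran from 43.2 for microglia to 87.2 for Purkinje cells, beside 80.8 for the GNP markers. Open starts were thus not confined to GNP genes. Chd7 itself held 28 WT, 20 het and 36 mutant peaks in its gene body. The deleted part was not located here, and these numbers do not check the deletion.

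The sequences of a few peaks named below, in introns or upstream with no exon beneath, are given here for 300 bases around the WT summit. No Dcc peak is among them. The Ntn1 and Ntn4 peaks were the strongest away from a start site in each ligand gene. The first Unc5c peak was the strongest of that gene away from its start and was lower in mutant, and the second was the strongest WT peak of all 8 genes without a mutant peak within 300 bp. Sequences are from the RefSeq copy of GRCm38, plus strand, 5′ to 3′. Capitals mark matches, on either strand, to CAGCTG and CAGATG (E-boxes, bound by bHLH factors such as Atoh1), TTGGCA (nuclear factor I), CAGCAGG (Zic), GACCACCC (Gli), TGANTCA (AP-1), TGACAG (Meis) or ACAATG (Sox).

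Ntn1 intron, chr11:68233708-68234007: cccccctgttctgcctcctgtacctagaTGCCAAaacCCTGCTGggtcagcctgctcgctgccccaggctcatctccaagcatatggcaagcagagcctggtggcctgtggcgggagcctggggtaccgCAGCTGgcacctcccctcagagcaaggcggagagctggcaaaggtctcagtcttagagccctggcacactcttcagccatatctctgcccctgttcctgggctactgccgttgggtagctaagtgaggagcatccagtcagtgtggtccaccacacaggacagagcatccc
Ntn4 upstream flank, chr10:93633541-93633840: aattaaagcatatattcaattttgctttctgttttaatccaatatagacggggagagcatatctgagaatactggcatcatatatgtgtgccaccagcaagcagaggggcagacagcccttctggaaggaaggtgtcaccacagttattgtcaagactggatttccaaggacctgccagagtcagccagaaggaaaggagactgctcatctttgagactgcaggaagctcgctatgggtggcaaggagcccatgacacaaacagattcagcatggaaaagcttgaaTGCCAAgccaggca
Unc5c intron, lower in mutant, chr3:141797861-141798160: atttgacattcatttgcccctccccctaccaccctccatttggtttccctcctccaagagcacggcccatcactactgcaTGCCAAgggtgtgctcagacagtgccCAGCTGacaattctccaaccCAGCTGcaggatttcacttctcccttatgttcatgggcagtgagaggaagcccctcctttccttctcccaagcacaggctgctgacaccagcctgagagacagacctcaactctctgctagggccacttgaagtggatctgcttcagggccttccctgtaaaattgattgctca
Unc5c intron, WT and het lists alone, chr3:141814924-141815223: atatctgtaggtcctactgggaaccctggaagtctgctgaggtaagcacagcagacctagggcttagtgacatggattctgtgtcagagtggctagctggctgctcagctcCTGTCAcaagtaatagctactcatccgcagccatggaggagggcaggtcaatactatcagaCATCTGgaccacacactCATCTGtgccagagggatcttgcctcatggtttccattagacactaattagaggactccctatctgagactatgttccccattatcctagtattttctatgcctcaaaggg

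Most accessible regions of these genes were intronic and were held by the WT as well as the mutant list. Introns held 149 of the 193 WT peaks (77.2%) and 156 of the 201 mutant peaks (77.6%). Within 1 kb of a protein-coding start lay 15 WT peaks (7.77%), against 14.2% of all WT peaks. Peak density differed widely between the genes. The WT list held 14.5 peaks per 100 kb at Unc5a, 13.8 at Unc5b, 13.0 at Ntn1, 10.5 at Unc5c and 10.2 at Ntn4. Unc5d had 5.22, Dcc 3.34 and Neo1 2.97, below the 5.61 of the whole assembly. Dcc, with a gene body of 1097 kb, thus had 38 WT peaks, fewer than the 43 of Unc5c, whose gene body is 370 kb long.

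Of the 193 WT peaks, 47 had no overlapping mutant peak (24.4%, Wilson 95% interval 18.8 to 30.9%), beside 22.8% of all WT peaks. The reverse, a mutant peak with no WT overlap, held for 51 of 201 (25.4%, 19.9 to 31.8%), beside 30.7% of all mutant peaks. These intervals cover counting error over peaks only. Both shares of the 8 genes were near the background of the lists. Unmatched peaks were weak ones. A -log10 q of at least 5 was reached by 111 WT peaks, and 8 of these were unmatched (background 5.78%). At a -log10 q of at least 10, 0 of 64 were unmatched, which allows a share of up to 4.69% (background 0.456%). In the mutant list 1 of 63 peaks of that strength had no WT peak (background 1.21%).

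Joined within 300 bp, the 3 lists gave 225 regions at the 8 genes. All 3 lists held 106 of them (47.1%), beside 45.7% over the whole lists. WT and mutant without het shared 32 (14.2%, beside 12.7% of all regions), WT alone held 32 (14.2%, beside 13.3%) and het alone 8 (3.56%, beside 3.52%). WT and het without mutant shared 6 regions (2.67%, beside 1.66%), 4 of them at Unc5c (6.78% of its regions). Those at Unc5c were mostly weak in het, with het ranks of 1.94, 2.22, 4.95 and 29.3. Het and mutant without WT shared 6 others (2.67%, beside 3.03%), of which Unc5c had none. The 35 regions in mutant alone made up 15.6%, less than the 20.1% of all regions. At Unc5c they numbered 14 of 59 regions (23.7%) and at Unc5d 10 of 46 (21.7%).

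**Figure D1:**
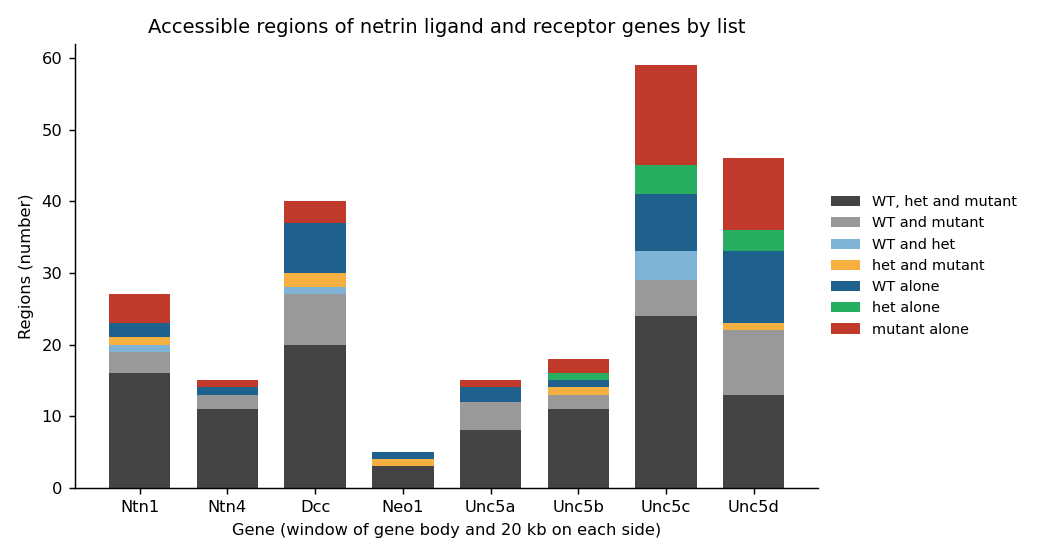
Number of regions (peaks of the 3 lists joined within 300 bp) at each gene on the vertical axis, stacked by the lists that hold them. The darkest segments, regions in all 3 lists, run from 3 at Neo1 to 24 at Unc5c, and the segments for mutant alone are tallest at Unc5c (14) and Unc5d (10).

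Where both lists had a peak, heights were close to equal. Over the 146 shared peaks of the 8 genes the log2 ratio of mutant to WT height had a median of -0.02 (quartiles -0.21 and 0.24), and 77 of them (52.7%) lay below 0, beside 42.4% of all shared peaks. Over all 118098 shared peaks the median was 0.08 (quartiles -0.14 and 0.30). A difference of 1.5-fold or more was taken as the threshold. Of the 146 peaks 7 were lower in mutant by this much (4.79%, background 3.61%) and 9 were higher (6.16%, background 8.37%). With 40 or more tags in the 2 lists together, 3 of 67 were lower (background 2.51%) and 2 higher (background 6.15%). The Wilson intervals of the first 2 shares, 2.34 to 9.57% and 3.28 to 11.3%, included their backgrounds.

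The medians differed in sign between genes. Unc5c had the highest, at 0.24, and 24 of its 30 shared peaks were higher in mutant than in WT, or 20 of 30 once the ratios were centred on the median of all shared peaks. Ntn1 followed at 0.11 with 14 of 24 higher. Medians below 0 were found for Ntn4 (-0.18), Dcc (-0.14), Unc5d (-0.13), Neo1 (-0.05), Unc5b (-0.04) and Unc5a (-0.03). Among these, Dcc had 19 of 28 shared peaks lower in mutant (22 of 28 after centring), Unc5d 14 of 20 and Unc5b 10 of 14. The quartiles of Unc5c (0.06 and 0.41) lay above those of Dcc (-0.38 and 0.06), and both reached into the quartiles of all shared peaks.

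**Figure D2:**
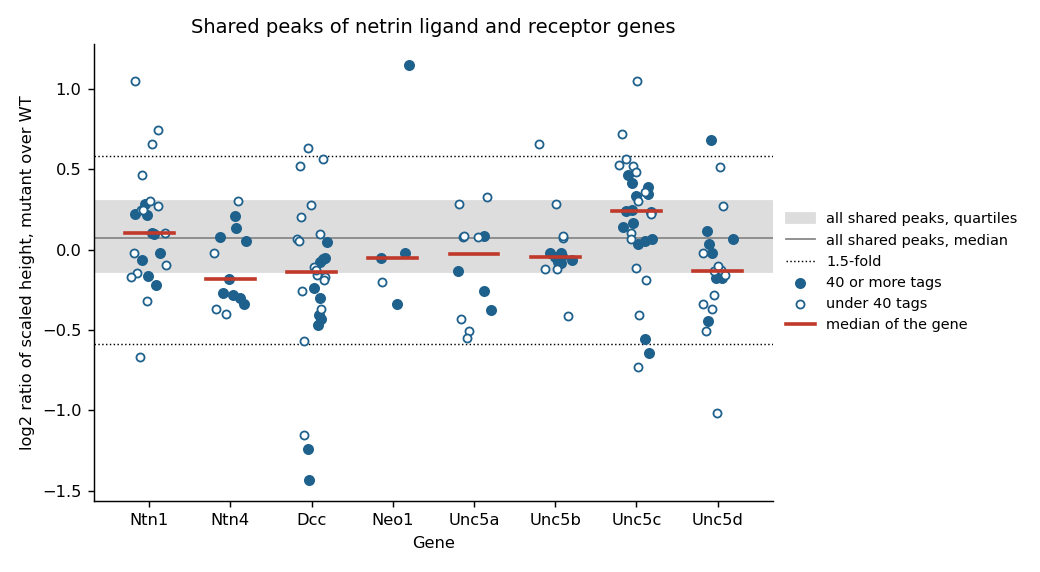
Each point is a shared peak, by gene on the horizontal axis and by its log2 ratio of scaled height (mutant over WT) on the vertical axis, filled where the 2 lists hold 40 or more tags together. Red bars are the medians of the genes, from -0.18 at Ntn4 to 0.24 at Unc5c, the grey band spans the quartiles of all shared peaks, and the lowest points are Dcc peaks at -1.43 and -1.24.

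Ntn1 encodes the classical diffusible netrin. It held 30 WT, 20 het and 31 mutant peaks, and 6 WT peaks and 6 mutant peaks had no partner in the other list. The WT peak among them with the highest -log10 q, 45.1 kb from the start, had 14 tags and a het peak within 300 bp. The strongest Ntn1 peak lay in an intron, 167 kb from the gene start, with 48 tags in WT and 48 in mutant (log2 ratio -0.02, 95% interval -0.63 to 0.59). This is the Ntn1 sequence printed above, and its 2 heights could not be told apart. The strongest start-site peak, at an internal transcript start 13.9 kb into the gene, had 32 tags in WT and 31 in mutant. A peak 173 kb from the start went from 22 tags in WT to 14 in mutant, and 3 Ntn1 peaks of 10 WT tags each had 16, 17 and 21 in mutant. The intervals of all 4 ratios included 0.

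Ntn4 encodes a netrin that occurs in basement membranes. It held 15 WT, 12 het and 16 mutant peaks, and 2 WT peaks (13.3%) and 2 mutant peaks (12.5%) were unmatched. Its WT peaks were strong, with a median rank of 74.8 against 44.9 over the 8 genes. Both peaks in its upstream flank were lower in mutant without reaching 1.5-fold. The one 6.99 kb upstream, printed above, had 55 tags in WT and 44 in mutant (log2 ratio -0.34, -0.95 to 0.26), and the one 4.51 kb upstream had 54 and 45. The peak at the Ntn4 start ranked 76.5 in WT and 68.2 in mutant and had 37 tags in WT and 33 in mutant. No Ntn4 peak passed 1.5-fold in either direction.

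Dcc encodes the attractive netrin receptor. It held 38 WT, 23 het and 33 mutant peaks, and was the one gene with fewer mutant than WT peaks. Unmatched peaks numbered 10 in WT (26.3%, 15.0 to 42.0%) and 5 in mutant (15.2%, 6.65 to 30.9%). The start-site peak was level, with 42 tags in WT and 44 in mutant (log2 ratio 0.05, -0.59 to 0.69). The strongest WT peaks at Dcc without a mutant peak within 300 bp, at 173, 182 and 748 kb, had 12 to 13 tags and no het peak within that distance. Also level was the strongest intronic peak, 189 kb from the start, with 42 and 41 tags.

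Dcc also had 3 peaks whose height was more than 2-fold lower in mutant. The lowest ratio among the 67 peaks with 40 or more tags belonged to a peak of 226 bp on chromosome 18, from 71826036 to 71826261, whose summit lies in coding exon 3 of Dcc, 525 kb from the gene start. It had 32 tags in WT (scaled height 0.635) and 12 in mutant (scaled height 0.235), a log2 ratio of -1.43 (-2.53 to -0.44). An intronic peak at 362 kb had 28 and 12 tags (-1.24, -2.35 to -0.22), and another at 201 kb had 22 and 10 (-1.16, -2.40 to -0.02). These 3 made up all Dcc peaks past 1.5-fold in that direction, and the counting intervals of each lay below 0. In the other direction 1 shared Dcc peak passed 1.5-fold, a low one with 7 tags in WT and 11 in mutant, and its interval included 0. The intervals were not adjusted for the 146 peaks compared.

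The het list also held these 3 peaks, at lower rank than WT. The rank of the exon 3 peak was 87.9, 62.8 and 42.3 in WT, het and mutant. The ranks were 79.5, 39.3 and 38.2 for the peak at 362 kb, and 75.2, 28.5 and 25.4 for the peak at 201 kb. Het ranks were low in general, and 76.7% of all WT peaks found in the 3 lists ranked lower in het than in WT. A mutant rank below the het rank was less common, at 15.5% of all such peaks, 16.8% over the 8 genes (19 of 113) and 28.6% at Dcc (6 of 21). The 3 peaks above, picked for their low mutant height, are among these 6, so the Dcc share is not independent of that choice. In the opposite direction, the mutant list held 1 Dcc peak with a -log10 q of 11.2 and 18 tags that WT lacked. It lies in an intron, 580 kb from the gene start, and het had a peak within 300 bp of it.

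Neo1 encodes neogenin, which binds netrins and repulsive guidance molecules. It held 6 WT, 5 het and 6 mutant peaks, 3 of the WT peaks at its start. The main start-site peak had 46 tags in WT and 45 in mutant (log2 ratio -0.05, -0.68 to 0.58). A narrow WT peak beside it, with 20 tags, had the highest ratio of the 67 peaks (1.15, 0.36 to 1.99). It overlapped the same wide mutant peak as the main one, so the ratio sets a WT shoulder against the summit of the promoter. The strongest peak away from the start, at the upstream edge of the window, had 25 and 20 tags.

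Unc5a and Unc5b encode repulsive receptors that also act as dependence receptors, which promote cell death in the absence of netrin. Unc5a held 14 WT, 8 het and 15 mutant peaks, of which 2 WT and 3 mutant peaks were unmatched. Its start-site peak had 26 tags in WT and 28 in mutant, and its strongest peak, 13.1 kb upstream, had 41 and 32 (log2 ratio -0.38, -1.09 to 0.33). Unc5b held 15 WT, 14 het and 17 mutant peaks. Unmatched were 1 WT peak (6.67%, 1.19 to 29.8%), an intronic one with 18 tags, and 3 mutant peaks (17.6%), the strongest an intronic one 15.6 kb from the start with 28 tags. The strongest Unc5b start-site peak had 63 tags in WT and 63 in mutant. The strongest other peak in the window had 56 and 55 tags and lay at the start of the neighbouring gene Slc29a3. Of the 14 shared Unc5b peaks 1 passed 1.5-fold, with 15 tags in WT and 24 in mutant.

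Unc5c held 43 WT, 34 het and 46 mutant peaks, the most of the 8 genes in each list. Its promoter peak, on chromosome 3 from 141464634 to 141465844, was the tallest of all, with 109 tags in WT and 113 in mutant (log2 ratio 0.03, -0.36 to 0.43). Its rank was 97.4 in the WT list, 96.4 in het and 97.4 in mutant. Accessibility of the Unc5c start was thus equal within counting error. Unmatched at Unc5c were 13 WT peaks (30.2%, 18.6 to 45.1%) and 15 mutant peaks (32.6%, 20.9 to 47.0%). At a -log10 q of at least 5, 1 of 21 Unc5c peaks in WT was unmatched (4.76%), beside the 5.78% given above.

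That peak lies in an intron, 350 kb from the gene start, on chromosome 3 from 141814827 to 141815152. It had 29 tags and a rank of 54.7 in WT, and het held a peak there with a rank of 29.3. It is the second Unc5c sequence printed above. The first, 333 kb from the start, was the strongest Unc5c peak outside the promoter, and it had 60 tags in WT (scaled height 1.19) and 39 in mutant (scaled height 0.764). The log2 ratio was -0.64 (-1.26 to -0.03), a 1.56-fold lower height. With fold enrichment over the local background in place of height, the log2 ratio was -0.50, short of 1.5-fold. It ranked at 94.8 in WT, with 86.4 in het and 83.4 in mutant. The neighbouring peaks at 329 kb and 346 kb had 49 and 52 tags, and 56 and 59 tags, in WT and mutant, so the lower height did not extend to them. Past 1.5-fold, Unc5c had 2 shared peaks lower in mutant and 2 higher. The other lower one, at 211 kb, had 18 tags in WT and 11 in mutant, and its interval included 0. The 6 lowest ratios with 40 or more tags also held an Unc5c peak at 131 kb, with 29 and 20 tags (-0.55, -1.45 to 0.32).

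Other Unc5c peaks were higher in mutant. A ratio of 1.5-fold or more was found for 2 low ones, at 123 kb with 10 and 21 tags in WT and mutant, and at 196 kb with 9 and 15. Of the 6 highest ratios with 40 or more tags, 4 belonged to Unc5c, each under 1.5-fold. A peak 374 kb from the gene start, in the downstream flank, had 25 tags in WT and 35 in mutant. Intronic ones at 354 kb and 135 kb had 40 and 53, and 20 and 27, and one at 366 kb, in the untranslated part of the last exon, had 31 and 40. The intervals of these 6 ratios included 0, for example -0.36 to 1.08 for the last. A pair of Unc5c peaks found in mutant alone stood on either side of the promoter, 3.35 kb upstream with 40 tags and 4.32 kb downstream with 44 tags. Neither had a WT or het peak within 300 bp. Both were narrow (108 and 97 bp) and of middling rank (48.9 and 54.7). Their fold enrichments over the local background were 2.78 and 2.89, against 6.63 for the promoter peak in mutant.

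**Figure D3:**
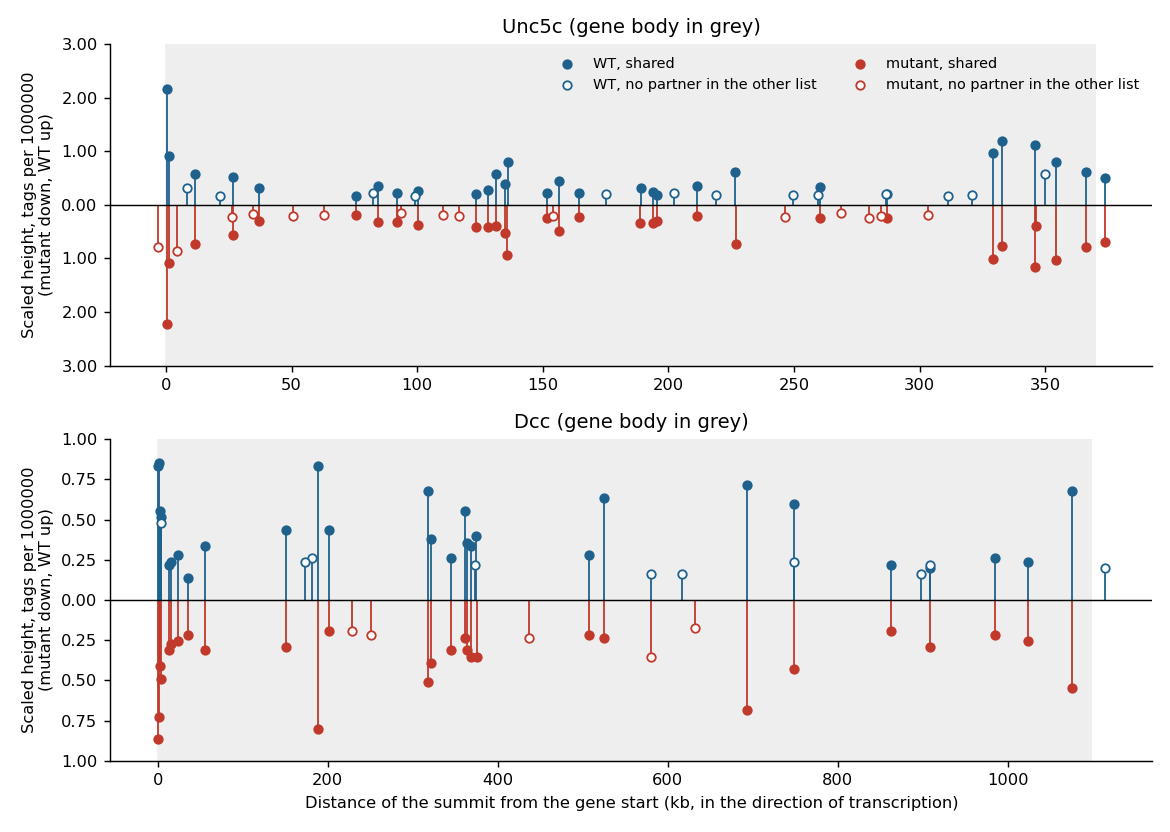
Scaled height of each peak (vertical axis, WT upwards in blue and mutant downwards in red) against the distance of its summit from the gene start in kb, for Unc5c above and Dcc below, with open circles for peaks without a partner in the other list. The Unc5c promoter is level between WT and mutant (109 and 113 tags). Most open circles are short except 2 mutant ones beside the Unc5c promoter (40 and 44 tags, with middling ranks of 48.9 and 54.7). The Dcc peaks at 201, 362 and 525 kb are visibly shorter in mutant.

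Unc5d encodes a receptor that also binds Flrt proteins. It held 32 WT, 18 het and 37 mutant peaks. The gene had the highest unmatched shares, 12 WT peaks (37.5%, 22.9 to 54.7%) and 16 mutant peaks (43.2%, 28.7 to 59.1%). All 12 of these WT peaks had a -log10 q under 5, since 0 of the 14 stronger ones lacked a mutant peak. The start-site peak had 66 tags in WT and 70 in mutant (log2 ratio 0.07, -0.44 to 0.57). The peak elsewhere with the highest -log10 q, in an intron 374 kb from the start, had 39 and 35 tags, and one 4.20 kb upstream had 51 and 38 (-0.44, -1.09 to 0.19). Of the 20 shared Unc5d peaks 1 was 1.5-fold or more lower in mutant and 1 higher. In the mutant list 3 of 15 Unc5d peaks with a -log10 q of at least 5 were unmatched (background 11.2%). The strongest Unc5d peaks of the mutant list without a WT peak within 300 bp lay 1.02 kb and 467 kb from the start, with 27 and 14 tags. The first had a het peak within 300 bp and belonged to the joined promoter region that all 3 lists held.

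**Figure D4:**
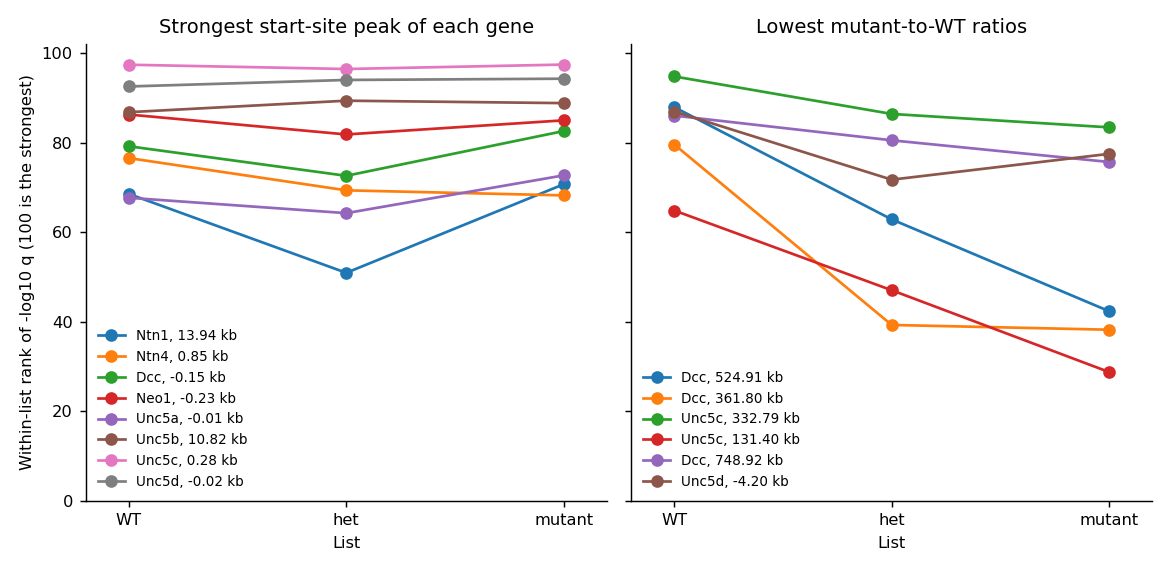
Within-list rank of -log10 q (vertical axis, 100 is the strongest) in the WT, het and mutant lists, for the strongest start-site peak of each gene on the left and for the 6 shared peaks with the lowest mutant-to-WT ratios on the right, which the ratio itself selected. On the left WT and mutant ranks range from level at Unc5c (97.4 and 97.4) to 76.5 and 68.2 at Ntn4, and on the right the Dcc peak at 525 kb runs from 87.9 over 62.8 to 42.3.

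Base composition and short motifs of the WT peaks were described next, over the 300 bases around each summit. Away from protein-coding starts, the 178 peaks of the 8 genes had a median GC content of 49.2%, close to the 49.0% of all 131184 such peaks. The genes themselves differed, from 46.0% at Dcc and Unc5c to 59.3% at Unc5b and 60.3% at Neo1. CAGATG, on either strand, was present in 39.3% of the 178 peaks and in 37.7% of all, and CAGCTG in 27.5% and 29.7%. The nuclear factor I motif TTGGCA was found in 32.0% and 29.6%, CAGCAGG in 11.8% and 15.9%, and ACAATG in 13.5% and 15.0%. TGACAG was found in 37.1% and 28.6%, the widest gap of the 8 motifs. TGANTCA was found in 10.7% and 9.70%, and GACCACCC in 1.69% (3 peaks) and 0.874%. The matches say only that these letters occur there, and no share was tested. The Unc5c peak that was lower in mutant held CAGCTG at 2 places. The Unc5c peak without a called mutant peak within 300 bp held CAGATG at 2 places and a TGACAG match, each as its reverse complement.

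Other genes of the pathway were described in the same way: 33 genes for further netrins, other ligands and receptors that share these partners, and signalling proteins below the receptors. They held 486 WT and 557 mutant peaks. No mutant peak overlapped 81 of the WT peaks (16.7%), below the 24.4% of the 8 genes and the 22.8% of all WT peaks. No WT peak overlapped 144 of the mutant peaks (25.9%, background 30.7%). Of their 405 shared peaks 9 were 1.5-fold or more lower in mutant (2.22%, background 3.61%) and 18 higher (4.44%, background 8.37%). The median log2 ratio was 0.05, beside 0.08 over all shared peaks. Dscam, a netrin receptor of the immunoglobulin superfamily, had the most WT peaks, 47, of which 6 had no mutant peak. Dscaml1, its relative, had 12 of 40 without one, and Trio, a signalling protein that acts below Dcc, had 5 of 37. Their medians were 0.03, 0.06 and 0.03, within the quartiles of all shared peaks.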

How the data were processed

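The members and gene lists were chosen with earlier results of these data known. The authors called peaks with MACS2 2.1.0.20150731 at a q-value of 0.05 on pooled libraries without a control. The deposited pileup signal counts tags at each summit, the deposited fold enrichment is a ratio to the local background, and the deposited -log10 q values depend on depth. Per the file headers, WT and mutant alignments came from a STAR folder with modelled fragments of 90 and 88 bp, and het alignments from a bowtie folder with tags extended to 200 bp, whereas the study's methods describe 1 procedure for all. The submitters' processing notes name Trim Galore 0.4.1, STAR 2.5.0b, Bowtie 1.0.0 and Picard 1.139. The genotype of each list was read from the group name in its file.

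All columns used were pooled values, and 0 columns were left without a group. Peaks counted as shared at an overlap of 1 bp, and a WT peak was compared with the tallest overlapping mutant peak. Ratios have exact conditional binomial 95% intervals and shares have Wilson 95% intervals. Both cover counting error only, since reads without molecular identifiers are not independent molecules. The peaks named were, for each gene, the WT peak of highest -log10 q at a start site and elsewhere, the 6 strongest of each list without a partner within 300 bp, and the 6 lowest and highest ratios with 40 or more tags. Other Dcc, Unc5c, Ntn1, Ntn4 and Unc5b peaks were named after their values were seen. Not every peak that the rule names is reported here. Coordinates count from 1, and 0 peaks reached past a chromosome end of the reference. Alternatives to the overlap, threshold, window, measure and fold were tried. Overlap code was tested on simulated data. Calculations used python 3.11.15, numpy 2.4.6, pandas 2.3.3, scipy 1.17.1 and pysam 0.24.0.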

Additional observations from a re-analysis of the deposited data

How the results depend on the processing

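No paired analysis was possible because each genotype had a single pooled list, and for the same reason no replicate could be left out. The unmatched WT share rose from 24.4% to 37.8% when a reciprocal overlap of 50% was required and fell to 7.21% when WT peaks alone were held to a -log10 q of 5 or more. The mutant share moved likewise, from 25.4% to 40.3% and 9.68%. For Unc5c the share went from 30.2% to 4.76% with that threshold on WT peaks and to 14.3% with it on both lists. Partners within 300 bp and the windows of the gene body alone or with 5 kb kept these 3 shares within their intervals, and so did the remaining overlap and threshold settings. For the other 7 genes, 12 of 42 alternative WT shares left their intervals. The Unc5d share went from 37.5% to 59.4% with reciprocal overlap and to 0% with the threshold on WT peaks. With that threshold the Dcc share went from 26.3% to 14.3%. A fold of 2 left 4 shared peaks lower and 3 higher in mutant, in place of 7 and 9. Centring on the median over all shared peaks gave 10 and 8, and the mutant peak with the nearest summit, an alternative chosen after seeing the data, gave 8 and 9. The median log2 ratio of the 146 shared peaks was 0.04 with fold enrichment, -0.02 with the nearest summit and -0.04 with the threshold on both lists, and in within-list rank the median difference was 0.74 points, against 2.28 points over all shared peaks. In alternatives also added later, the Dcc median stayed below 0 on the log2 scale, from -0.22 after centring to -0.08 with fold enrichment (15 of 28 peaks lower), and the Unc5c median above 0, from 0.15 to 0.24. All 81 alternative ratios of the 27 named shared peaks lay inside the counting intervals, but most could hardly have left them. The nearest summit left each of these ratios unchanged, and centring shifted each by the same 0.08, little beside the width of the intervals. Region counts changed by under 1.5-fold when overlapping peaks alone were joined. Depth limits single ratios: with 60 and 39 tags the interval still ran from -1.26 to -0.03.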
